A study of Mus musculus with 12 samples.

Results

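Liver sinusoids are lined by a specialised endothelium, and 10 genes that mark it were followed here in the livers of female SJL/J mice on a control or an iron-loaded diet. They were chosen by name, as the rows of the count table whose Ensembl identifiers carry the symbols Stab1, Stab2, Lyve1, Clec4g, Fcgr2b, Pecam1, Kdr, Wnt2, Wnt9b and Rspo3, and they are 10 of the 27022 genes in the table. With the whole-transcript kit, transcripts of Lyve1, Wnt2, Wnt9b and Stab1 rose on the iron-loaded diet. With the 3’ kit, Lyve1 rose and Stab2 and Fcgr2b fell. Clec4g, Pecam1, Kdr and Rspo3 passed the test in neither kit. Of these results, only the rises of Lyve1 and Wnt2 with the whole-transcript kit passed in all 13 other analyses. With the 3’ kit, none of the 10 genes passed when any 1 control mouse was left out. None passed a test of whether its diet difference differed between the kits.

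Sinusoidal endothelial cells have open pores and no continuous basement membrane, and they clear waste molecules from blood through scavenger receptors. They also instruct the hepatocytes beside them: Wnt ligands and R-spondin 3 made by endothelium near the central vein keep pericentral hepatocyte genes on, and endothelial bone morphogenetic proteins drive hepatocyte hepcidin, the hormone that limits iron uptake. The scavenger receptors are commonly used to mark sinusoidal endothelium, whereas Pecam1 and Kdr are expressed by endothelium more widely.

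Liver RNA from 6 mice, 3 on each diet, was made into libraries with both kits, which gave 12 libraries from the same 6 RNA samples. Trad-KAPA shears messenger RNA and reads fragments along whole transcripts, whereas 3’-LEXO primes at the poly(A) tail and reads near the 3′ end. All mice began on an AIN-93G diet with 50 ppm iron at 3 weeks of age, were killed at 11 weeks after a fast and were perfused, and the iron-loaded group had been moved at 6 weeks to the AIN-93G diet with 2% carbonyl iron. Each diet was 1 cage, so diet and cage cannot be told apart, and the tissue was a piece of the large lobe, in which fewer cells of a type and less RNA per cell cannot be told apart.

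Library totals ran from 13834682 to 16553616 counts for Trad-KAPA, and 3’-LEXO totals from 10724672 to 14104236, and all 10 genes passed the filter on low counts in both kits. Iron-loaded mouse 1 stood apart from its group. In the 2 kits the chi-square per degree of freedom between it and either of its group mates was 49.5 to 59.8. Between iron-loaded mice 2 and 3 it was 5.97 and 5.98. Between control mice it was 18.5 to 19.9 in Trad-KAPA and 25.8 to 35.9 in 3’-LEXO. Control mouse 3 carried the highest summed level of red cell and platelet markers in both kits, 156 CPM with Trad-KAPA and 1225 CPM with 3’-LEXO. Each call below is therefore also given without iron-loaded mouse 1 where it changes. The same 6 mice underlie both kits, so the kits are not separate evidence on the diets.

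The genes lie on 8 chromosomes of GRCm38, all on the minus strand. Among the receptors, Stab1 (ENSMUSG00000042286) spans chr14:31139013-31168641, Stab2 (ENSMUSG00000035459) chr10:86841198-87008025, Lyve1 (ENSMUSG00000030787) chr7:110850607-110863239, Clec4g (ENSMUSG00000074491) chr8:3707064-3720651 and Fcgr2b (ENSMUSG00000026656) chr1:170958617-170976547. The adhesion molecule gene Pecam1 (ENSMUSG00000020717) spans chr11:106654217-106750628 and the VEGF receptor gene Kdr (ENSMUSG00000062960) chr5:75932827-75978458. The ligand genes Wnt2 (ENSMUSG00000010797), Wnt9b (ENSMUSG00000018486) and Rspo3 (ENSMUSG00000019880) span chr6:17988940-18030585, chr11:103727364-103749821 and chr10:29452416-29535867.

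Bases upstream of the transcription start were in RefSeq (GRCm38.p6) for 7 of the 10 genes, and were not matched for Lyve1, Pecam1 and Rspo3. The 250 bases before the start are shown for Stab1 and Wnt9b, which rose in Trad-KAPA, and for Clec4g, which passed the test in neither kit. Capitals mark matches, on either strand, to letters bound by 4 factor families at work in endothelium. These were AGGAAG or CGGAAG for ETS factors, AGATAA or TGATAA for GATA factors, GGCGCC for SMAD factors, and TGAGTCA or TGACTCA for AP-1 factors.
Stab1, chr14.0:31168642-31168891, minus strand: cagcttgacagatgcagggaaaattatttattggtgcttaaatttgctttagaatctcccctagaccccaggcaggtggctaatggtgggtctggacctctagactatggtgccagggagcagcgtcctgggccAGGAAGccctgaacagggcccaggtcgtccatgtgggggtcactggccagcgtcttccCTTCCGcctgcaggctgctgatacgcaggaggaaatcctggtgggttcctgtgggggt
Wnt9b, chr11.0:103749822-103750071, minus strand: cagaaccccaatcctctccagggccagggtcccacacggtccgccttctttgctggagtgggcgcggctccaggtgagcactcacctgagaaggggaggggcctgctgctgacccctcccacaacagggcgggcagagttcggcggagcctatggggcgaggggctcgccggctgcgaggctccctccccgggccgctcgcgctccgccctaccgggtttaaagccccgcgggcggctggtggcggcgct
Clec4g, chr8.0:3720652-3720901, minus strand: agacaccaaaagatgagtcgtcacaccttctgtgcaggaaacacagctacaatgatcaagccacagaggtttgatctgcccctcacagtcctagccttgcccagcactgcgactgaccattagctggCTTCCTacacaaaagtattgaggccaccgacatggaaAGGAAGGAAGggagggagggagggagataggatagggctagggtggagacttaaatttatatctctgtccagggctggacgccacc
Stab1 held ETS letters at 116 and 58 bases before its start, and Clec4g held them at 123, 86 and 82 bases, the last pair overlapping. Stab2 held them at 40 bases, and Wnt2 held SMAD letters at 175 bases and GATA letters at 9 bases. Wnt9b, Kdr and Fcgr2b held none of the 4 motifs in this window. Over 32851 RefSeq windows of the same length, 39.2% held the ETS letters, 16.6% the GATA letters, 9.59% the SMAD letters and 4.46% the AP-1 letters, and a match is a description of letters, not of binding.

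The question put to each kit was whether the level of a gene differed between the diets. Levels are counts per 1000000 counts of the library (CPM). Differences are log2 fold changes of iron-loaded over control from edgeR with TMM scaling, with standard error and a Benjamini-Hochberg adjusted p over all genes tested, and a gene was called where this adjusted p was below 0.05. Over all genes tested in Trad-KAPA, 8.77% were called higher and 8.37% lower on the iron-loaded diet, and in 3’-LEXO 3.17% and 2.92%. Of the 10 sinusoidal genes, 4 were called higher and 0 lower in Trad-KAPA, and 1 was called higher and 2 lower in 3’-LEXO.

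Lyve1, the hyaluronan receptor of sinusoidal and lymphatic endothelium, had the largest difference of the 10 genes in both kits. In Trad-KAPA it was at 4.71, 4.09 and 2.53 CPM in control mice 1 to 3 and at 16.1, 10.8 and 13.8 CPM in iron-loaded mice 1 to 3. The groups did not overlap, and the level was 3.40-fold higher on iron (log2 1.77 ± 0.22, edgeR adjusted p = 0.00375). In 3’-LEXO it was at 4.22, 4.58 and 5.74 CPM in the controls and at 16.9, 8.95 and 8.18 CPM in the iron-loaded mice. These groups did not overlap either, with iron-loaded mouse 1 far above its group mates (log2 1.16 ± 0.28, edgeR adjusted p = 0.0435). Without that mouse the 3’-LEXO difference was log2 0.78 (edgeR adjusted p = 0.0619), while in Trad-KAPA it was log2 1.66 (edgeR adjusted p = 0.00213).

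Stab1 and Stab2 encode the stabilins, large scavenger receptors of sinusoidal endothelium that share a domain plan. Stab1 was at 92.3, 90.7 and 74.6 CPM in the Trad-KAPA controls and at 113, 125 and 128 CPM in the iron-loaded mice. Every iron-loaded library lay above every control (log2 0.44 ± 0.12, edgeR adjusted p = 0.0349). In 3’-LEXO Stab1 was at 36.1, 33.6 and 33.9 CPM in controls and at 39.0, 27.5 and 27.5 CPM in iron-loaded mice, so that iron-loaded mouse 1 was the highest and the other two the lowest of the 6 libraries (log2 -0.20 ± 0.16, edgeR adjusted p = 0.460). The Trad-KAPA call was log2 0.52 without iron-loaded mouse 1 (edgeR adjusted p = 0.00700), and it was lost when any of the other 5 mice was left out (adjusted p = 0.0764 to 0.109). Nt5dc2 overlaps exons of Stab1 on the opposite strand and was at 3.32 to 8.35 CPM in Trad-KAPA and 2.86 to 5.64 CPM in 3’-LEXO.

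Stab2 fell in 3’-LEXO. It was at 138, 137 and 109 CPM in the Trad-KAPA controls and at 99.0, 129 and 133 CPM in the iron-loaded mice, groups that overlapped (log2 -0.15 ± 0.15, edgeR adjusted p = 0.538). In 3’-LEXO it was at 68.7, 77.6 and 66.4 CPM in controls and at 49.3, 45.9 and 50.5 CPM on iron. The 3’-LEXO groups were apart and Stab2 was 1.52-fold lower on iron (log2 -0.60 ± 0.13, edgeR adjusted p = 0.0307), and without iron-loaded mouse 1 it was log2 -0.60 (edgeR adjusted p = 0.0267). The call was lost when any of the other 5 mice was left out (edgeR adjusted p = 0.0656 to 0.0911).

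Fcgr2b, the inhibitory Fc gamma receptor that clears small immune complexes in sinusoids, had a similar pattern in values. It was at 61.9, 64.7 and 48.1 CPM in Trad-KAPA controls and at 49.8, 60.3 and 59.0 CPM on iron, with overlapping groups (log2 -0.11 ± 0.14, edgeR adjusted p = 0.607). In 3’-LEXO the controls were at 74.3, 67.0 and 57.9 CPM and the iron-loaded mice at 37.5, 49.0 and 44.5 CPM. These did not overlap, and Fcgr2b was 1.58-fold lower on iron (log2 -0.66 ± 0.16, edgeR adjusted p = 0.0439), or log2 -0.54 without iron-loaded mouse 1 (edgeR adjusted p = 0.0519). Of the stretches of 50 bases in its exons, 6.95% also occur in other genes, among them Fcgr3.

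Clec4g, a C-type lectin of sinusoidal endothelium, was at 45.3 to 60.7 CPM in the Trad-KAPA controls and at 46.0 to 58.1 CPM on iron. Its 3’-LEXO ranges were 34.0 to 54.1 CPM in controls and 32.4 to 39.9 CPM on iron. Both pairs of groups overlapped, with log2 -0.12 ± 0.14 in Trad-KAPA (edgeR adjusted p = 0.553) and log2 -0.32 ± 0.17 in 3’-LEXO (edgeR adjusted p = 0.265).

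**Figure D1:**
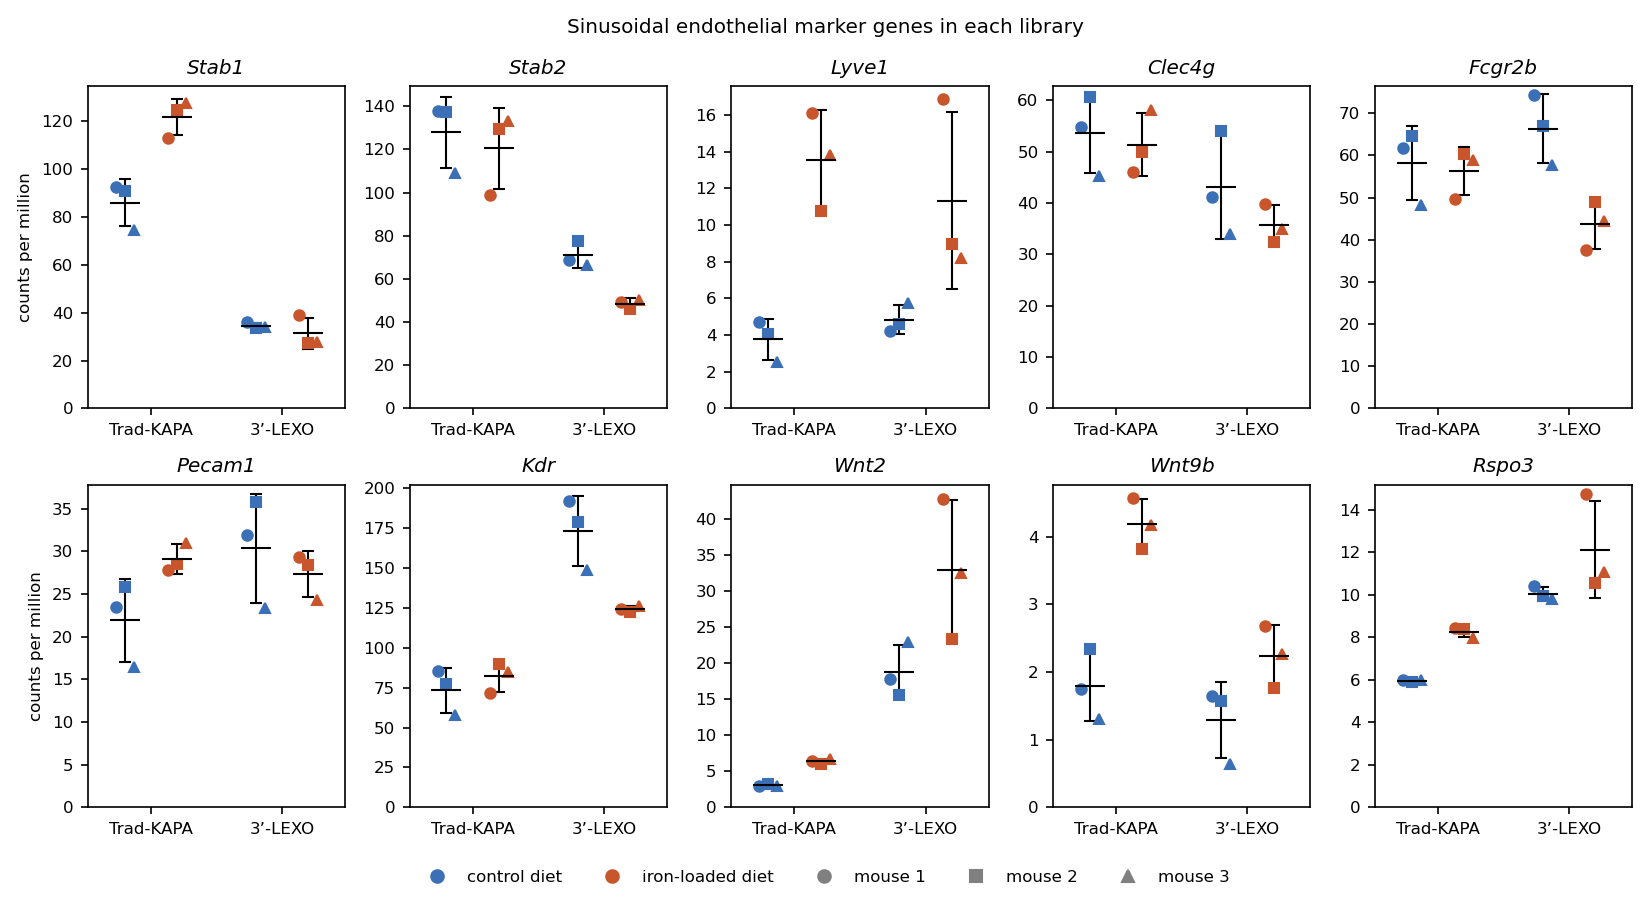
CPM (y axis, linear from 0) of the 10 genes in the 12 libraries, with blue for control and orange for iron-loaded mice, marker shape for the mouse, and black bars for the mean ± SD of 3 mice. Lyve1, Wnt2, Wnt9b and Rspo3 lie above all controls on iron in each kit, while Stab2, Fcgr2b and Kdr lie below all controls in 3’-LEXO and overlap them in Trad-KAPA.

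Wnt2 and Wnt9b are the Wnt ligands that endothelium around the central vein makes. Wnt2 was at 3.02, 3.28 and 2.96 CPM in the Trad-KAPA controls and at 6.43, 6.08 and 6.76 CPM on iron. These were 41 to 50 counts a library in controls and 89 to 94 on iron. The groups did not overlap, a 1.98-fold rise (log2 0.99 ± 0.16, edgeR adjusted p = 0.00876). In 3’-LEXO the controls were at 17.9, 15.6 and 22.9 CPM and the iron-loaded mice at 42.7, 23.3 and 32.5 CPM. There the lowest iron-loaded mouse was just above the highest control, and the difference did not pass (log2 0.74 ± 0.23, edgeR adjusted p = 0.0879).

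Wnt9b was at 1.75, 2.34 and 1.30 CPM in the Trad-KAPA controls and at 4.57, 3.83 and 4.17 CPM on iron, from 18 to 64 counts a library. It was 2.21-fold higher on iron with no overlap (log2 1.14 ± 0.24, edgeR adjusted p = 0.0179), and the adjusted p was 0.0504 to 0.0582 without control mouse 1, control mouse 3 or iron-loaded mouse 3. In 3’-LEXO only 9 to 35 counts a library fell on Wnt9b, at 1.64, 1.57 and 0.638 CPM in controls and 2.68, 1.77 and 2.27 CPM on iron. The groups did not overlap but the difference did not pass (log2 0.75 ± 0.38, edgeR adjusted p = 0.250).

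Rspo3, the secreted R-spondin that strengthens Wnt signalling, had 83 to 99 counts a library in the Trad-KAPA controls and 111 to 123 on iron. It was at 5.98, 5.89 and 6.00 CPM in controls and at 8.43, 8.40 and 7.98 CPM on iron. At such counts, so small a spread of 3 values was not read as a property of the mice. The groups did not overlap, but Rspo3 did not pass over all genes (log2 0.40 ± 0.14, edgeR adjusted p = 0.0787). In 3’-LEXO it was at 10.4, 9.95 and 9.78 CPM in controls and at 14.7, 10.5 and 11.1 CPM on iron (log2 0.21 ± 0.17, edgeR adjusted p = 0.479), and without iron-loaded mouse 1 the difference was log2 0.07. An antisense gene overlaps Rspo3 and shares 11.6% of its stretches of 50 bases, and this gene reached at most 0.143 CPM in any library.

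Kdr, the main VEGF receptor of endothelium, was at 85.2, 77.0 and 57.5 CPM in the Trad-KAPA controls and at 71.3, 89.8 and 84.9 CPM on iron, with overlapping groups (log2 0.10 ± 0.16, edgeR adjusted p = 0.678). In 3’-LEXO it was at 192, 178 and 149 CPM in controls and at 124, 122 and 126 CPM on iron. The 3’-LEXO groups did not overlap, and the difference narrowly missed the threshold (log2 -0.53 ± 0.14, edgeR adjusted p = 0.0550) and passed with DESeq2 (adjusted p = 0.0111). Pecam1, the adhesion molecule CD31 of endothelium, platelets and leukocytes, was at 23.5, 25.8 and 16.5 CPM in the Trad-KAPA controls and at 27.8, 28.6 and 31.0 CPM on iron (log2 0.35 ± 0.15, edgeR adjusted p = 0.148). In 3’-LEXO its groups overlapped, at 23.3 to 35.8 CPM and 24.3 to 29.3 CPM (log2 -0.20 ± 0.17, edgeR adjusted p = 0.472).

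Counted without a test, 6 of the 10 genes had groups of CPM that did not overlap in Trad-KAPA, where 41.2% of all genes tested had this, and 7 of the 10 in 3’-LEXO, where 31.3% had. The 6 were all higher on iron, and the 7 were Lyve1, Wnt2, Wnt9b and Rspo3 higher and Stab2, Fcgr2b and Kdr lower. The median log2 difference of the 10 genes was 0.37 with Trad-KAPA and -0.20 with 3’-LEXO, against 0.02 and 0.01 over all genes tested.

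**Figure D2:**
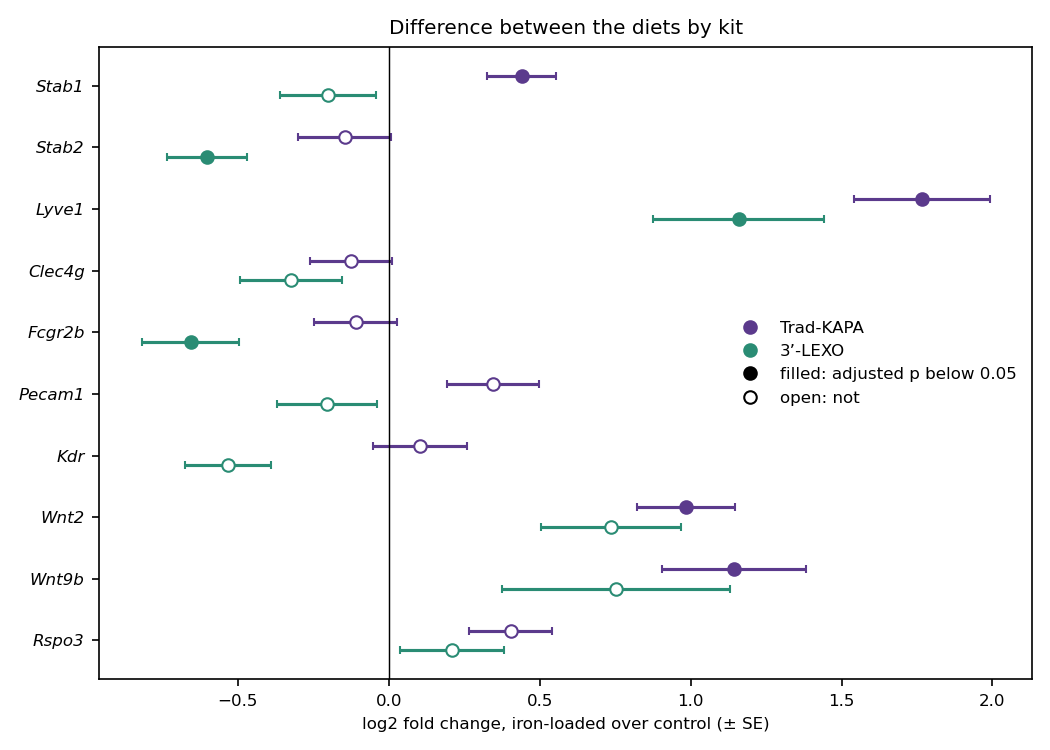
Log2 fold change of iron-loaded over control (x axis, ± SE) for each gene in Trad-KAPA (purple) and 3’-LEXO (green), with filled points where the edgeR adjusted p was below 0.05. Every green point lies to the left of the purple point of the same gene, with the widest gap at Stab1, log2 -0.20 against 0.44, and the narrowest at Rspo3, log2 0.21 against 0.40.

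Whether the kits gave different diet effects was tested as the diet by kit interaction in all 12 libraries. The interaction is the 3’-LEXO log2 difference minus the Trad-KAPA one, and it was negative for all 10 genes, from log2 -0.19 for Rspo3 to log2 -0.64 for Stab1, where 50.4% of all genes tested were negative. The lists nearest to these genes were alike in this: 11 of 12 other sinusoidal endothelial genes, 11 of 12 large-vessel and capillary-type genes, 10 of 12 endothelial transcription factors and 17 of 23 genes of endothelium in general were negative, as were 6 of 6 Fc gamma receptor genes and 8 of 10 Kupffer and 8 of 10 stellate cell markers. Among hepatocyte markers 2 of 7 were negative, and among hepatocyte Wnt target genes 4 of 16. Nearer to the share of all genes were 12 of 21 Wnt ligands, R-spondins and receptors, 4 of 7 red cell and platelet markers and 3 of 6 lymphocyte markers. VEGF and angiopoietin genes were negative in 9 of 13 and cholangiocyte markers in 2 of 3. Some genes are in more than 1 list, and the Fc gamma, Wnt and VEGF lists hold members. No gene passed: 0 of the 10 and 0.0% of all genes with edgeR, and none with DESeq2. At an unadjusted p below 0.05, 5 of the 10 genes were lower in 3’-LEXO, against 1.47% of all genes tested. In the edgeR fit across all genes, the unadjusted p was 0.00564 for Stab1, with an adjusted p of 1.00. It was 0.00876 for Kdr, 0.0227 for Fcgr2b, 0.0293 for Pecam1 and 0.0358 for Stab2, and the adjusted p of each was 1.00 as well.

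With the mouse as a replicate block, which takes account of the shared RNA, 5 of all genes passed the interaction and none was a sinusoidal gene. The blocked edgeR adjusted p was 0.0937 for Kdr, 0.178 for Fcgr2b, 0.286 for Stab1, 0.296 for Pecam1 and 0.464 for Stab2. A kit difference in the diet effect was thus not called for any of the 10 genes, whichever kit called its diet difference. In simulated data the unblocked edgeR interaction test recovered 53.5% of genes changed 2-fold, so the absence of a call does not show equal effects.

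The same values can be read within each mouse, as the log2 ratio of 3’-LEXO to Trad-KAPA CPM. For Kdr this ratio was 1.17, 1.21 and 1.37 in the control mice and 0.80, 0.44 and 0.57 in the iron-loaded mice. For Pecam1 it was 0.44, 0.48 and 0.50 in controls and 0.08, -0.01 and -0.36 on iron. For Stab1, Stab2, Fcgr2b, Pecam1 and Kdr every iron-loaded mouse lay below every control, as for 6.44% of the 13438 tested genes with counts in all libraries. For the other 5 genes the ratios of the diets overlapped.

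**Figure D3:**
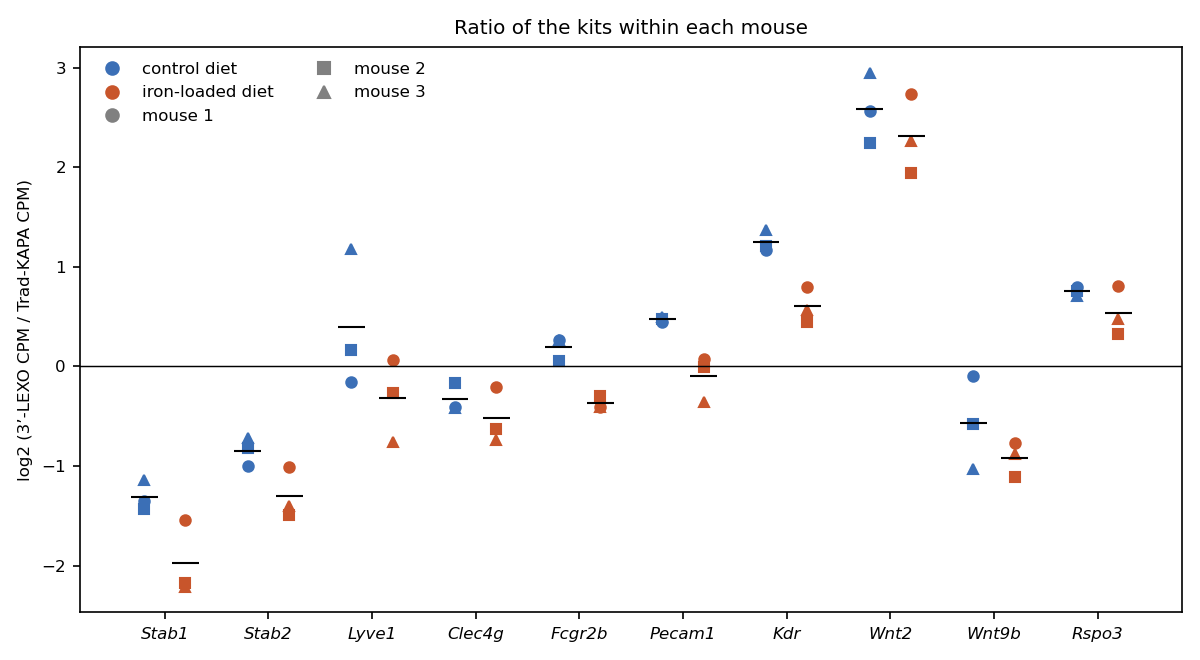
Log2 ratio of 3’-LEXO to Trad-KAPA CPM (y axis) in each of the 6 mice for each gene, blue for control and orange for iron-loaded, with marker shape for the mouse and a bar for the mean of 3 mice. Wnt2 sits highest, at a mean of 2.45 over the 6 mice, and Stab1 lowest, at -1.64.

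The kits differed in level for most of these genes, as for most of the table. Averaged over the diets, 7 of the 10 genes were called between the kits, where 76.5% of all genes tested were called, so the share is near the background. Wnt2 was 5.60-fold higher in 3’-LEXO (log2 2.49 ± 0.16, edgeR adjusted p = 5.26e-09), Kdr 1.90-fold and Rspo3 1.58-fold higher. Stab1 was 3.10-fold lower in 3’-LEXO (log2 -1.63 ± 0.10, edgeR adjusted p = 3.60e-09), Stab2 2.11-fold, Wnt9b 1.61-fold and Clec4g 1.34-fold lower. Lyve1 (log2 0.06 ± 0.20), Fcgr2b (log2 -0.08 ± 0.11) and Pecam1 (log2 0.19 ± 0.11) were not called, and with the mouse as a replicate block Pecam1 was called too (edgeR adjusted p = 0.0204).

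Exon length ran from 2255 bases in Wnt2 to 10288 in Stab1, and Kdr, at 9030 bases, was among the longest yet higher in 3’-LEXO. Over the 10 genes the Spearman rho of exon length against the log2 kit difference was -0.41, and over 14368 genes it was -0.29, a description in which all genes share the 12 libraries.

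Levels of different genes are given per kilobase of exon in Trad-KAPA, within each diet. This length merges all annotated exons of a gene, so the ranks depend on the annotation and are not of transcript numbers. In the controls Clec4g was highest at 21.8 ± 3.15 CPM per kb (SD, n = 3), followed by Stab2 at 14.6 ± 1.89, Fcgr2b at 10.1 ± 1.53, Stab1 at 8.35 ± 0.95 and Kdr at 8.11 ± 1.57. Pecam1 was at 3.52 ± 0.78, Rspo3 at 1.93 ± 0.02, Wnt2 at 1.37 ± 0.08, Lyve1 at 1.29 ± 0.38 and Wnt9b at 0.40 ± 0.12 CPM per kb. Each exceeded the next in 3 of 3 control mice, except Stab1 over Kdr and Wnt2 over Lyve1, which held in 2 of 3, so these neighbours did not differ beyond their spread.

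On iron the Trad-KAPA order differed. Stab1, at 11.8 ± 0.75 CPM per kb (SD, n = 3), was above Fcgr2b, at 9.73 ± 0.99, in 3 of 3 iron-loaded mice, whereas Fcgr2b was above Stab1 in 3 of 3 controls. Lyve1, at 4.65 ± 0.92 CPM per kb, came next to Pecam1, at 4.68 ± 0.27, and was above Wnt2, at 2.85 ± 0.15, and Rspo3, at 2.68 ± 0.08. Pecam1 exceeded Lyve1 in 2 of 3 iron-loaded mice and Wnt2 exceeded Rspo3 in 2 of 3, and these neighbours did not differ beyond their spread. Clec4g, Stab2 and Wnt9b kept the first, second and last ranks in both diets. In 3’-LEXO, without scaling by length, Kdr was at rank 1 with a mean of 149 CPM over the 6 mice. Clec4g was at rank 4 there, with 39.4 CPM. Fcgr2b was above Stab1 in mean 3’-LEXO CPM on both diets, at 66.4 and 34.5 in controls and 43.7 and 31.3 on iron. Iron-loaded mouse 1 went the other way, at 37.5 and 39.0 CPM.

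The genes varied together to different degrees once centred within kit. The Pearson r across libraries was 0.93 for Lyve1 with Wnt2, 0.92 for Wnt2 with Rspo3 and 0.91 for Lyve1 with Rspo3. It was 0.87 for Fcgr2b with Kdr, 0.86 for Fcgr2b with Stab2 and 0.84 for Stab2 with Kdr. It was lowest at -0.61, for Fcgr2b with Wnt2. Stab1 was at 0.72 with Rspo3, 0.66 with Lyve1 and 0.58 with Wnt2, and at 0.57 with Kdr, 0.26 with Stab2 and 0.17 with Fcgr2b. Pecam1 was at 0.43 with Rspo3, 0.48 with Lyve1 and 0.26 with Wnt2, and at 0.68 with Kdr, 0.35 with Stab2 and 0.41 with Fcgr2b. With Wnt9b, Stab1 was at 0.54 and Pecam1 at 0.67. The 12 libraries come from 6 mice and hold the diet difference, so these are descriptions. Outside the lists used here, the genes nearest to the mean of the 10 z-scored genes were Slc9a9 (r = 0.96), C1qtnf1 (r = 0.96), Apbb1ip (r = 0.93), Itga9 (r = 0.90) and Prkcb (r = 0.90), of 9197 genes ranked.

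Other genes of sinusoidal endothelium were also read from a list of 13. The list was chosen with earlier results of these data known, so its counts are descriptions. It holds Bmp6, which the authors reported as increased in both kits and by RT-qPCR. In Trad-KAPA 6 of the 12 tested rose and 0 fell by edgeR or DESeq2, where edgeR called 8.77% of all genes tested higher. In 3’-LEXO 1 of the 11 tested rose and 0 fell by edgeR, where 3.17% of all genes tested were called higher. DESeq2 called 1 higher and 1 lower in 3’-LEXO. Adam23 rose in both kits (log2 1.53 ± 0.10 in Trad-KAPA and 0.88 ± 0.17 in 3’-LEXO, edgeR adjusted p = 0.000506 and 0.0179). Bmp2, which with Bmp6 signals iron status to hepatocytes, rose in Trad-KAPA from 24.8 ± 2.18 to 49.4 ± 4.16 CPM (SD, n = 3), a log2 difference of 0.93 ± 0.12 (edgeR adjusted p = 0.00375). Bmp6 rose in Trad-KAPA from 3.37 ± 0.49 to 19.0 ± 2.64 CPM (SD, n = 3), a log2 difference of 2.42 ± 0.17 (edgeR adjusted p = 0.000506). In 3’-LEXO it had 0 to 4 counts a library, at 0.05 ± 0.04 and 0.22 ± 0.11 CPM. It did not pass the filter on low counts there, so the 3’-LEXO increase that the authors reported was not tested. Plxnc1, a plexin, rose in Trad-KAPA as well (log2 0.92 ± 0.16, edgeR adjusted p = 0.0106).

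Of 23 genes of endothelium in general, 2 rose and 2 fell in Trad-KAPA by edgeR, shares near the 8.77% and 8.37% of all genes tested. DESeq2 called 2 higher and 1 lower there. In 3’-LEXO 2 fell and none was called higher by edgeR or DESeq2. Those that fell by edgeR were the same pair in each kit, S1pr1, the sphingosine-1-phosphate receptor that steadies endothelial junctions, and Emcn, a sialomucin of capillary and venous endothelium. S1pr1 was at log2 -0.93 ± 0.16 in Trad-KAPA and -1.02 ± 0.20 in 3’-LEXO (edgeR adjusted p = 0.00972 and 0.0211), and Emcn at log2 -0.84 ± 0.21 and -0.89 ± 0.22 (edgeR adjusted p = 0.0286 and 0.0428). Those that rose in Trad-KAPA were Ptprb, an endothelial phosphatase (log2 0.77 ± 0.14, edgeR adjusted p = 0.0116), and Cdh5, which encodes VE-cadherin (log2 0.58 ± 0.16, edgeR adjusted p = 0.0441). Of 14 large-vessel and capillary-type genes, 2 of the 11 tested in Trad-KAPA rose, the leukocyte adhesion molecules Vcam1 (log2 1.58 ± 0.29, edgeR adjusted p = 0.0123) and Icam1 (log2 0.81 ± 0.18, edgeR adjusted p = 0.0226), and 0 of 12 in 3’-LEXO were called with edgeR, with 5 at an unadjusted p below 0.05 and 2 called by DESeq2. Of 12 endothelial transcription factors, 0 were called in either kit, with 4 in Trad-KAPA and 1 in 3’-LEXO at an unadjusted edgeR p below 0.05, and 0 by DESeq2.

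The Wnt genes were read with their receptors and with the hepatocyte genes that respond to Wnt. Of 26 Wnt ligands, R-spondins and receptors, 21 were tested in each kit. In Trad-KAPA 2 rose, Wnt2 and Wnt9b themselves, and 3 fell, among them the receptor gene Fzd7 (log2 -0.79 ± 0.12, edgeR adjusted p = 0.00613) and the ligand gene Wnt5a (log2 -0.82 ± 0.23, edgeR adjusted p = 0.0412). In 3’-LEXO 1 fell, Fzd7 (log2 -1.08 ± 0.26, edgeR adjusted p = 0.0408). Of 16 hepatocyte Wnt target genes, 6 had positive and 10 had negative log2 differences in each kit. At an unadjusted edgeR p below 0.05 there were 5 in Trad-KAPA and 6 in 3’-LEXO, in both directions. By DESeq2 0 rose and 3 fell in each kit, and by edgeR 0 rose and 2 fell in each, the same pair. Oat, ornithine aminotransferase, was at log2 -1.64 ± 0.20 and -1.62 ± 0.20 (edgeR adjusted p = 0.00365 and 0.00307), and Cyp1a2, a pericentral cytochrome P450, at log2 -0.73 ± 0.13 and -0.76 ± 0.17 (edgeR adjusted p = 0.0106 and 0.0330).

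Of 14 VEGF and angiopoietin genes, Kdr included, 0 of 13 tested were called in either kit, with 1 in Trad-KAPA and 5 in 3’-LEXO at an unadjusted edgeR p below 0.05, and DESeq2 called 0 and 2. Of 6 Fc gamma receptor genes, 1 rose and 1 fell in Trad-KAPA, and 1 fell in 3’-LEXO, Fcgr2b itself.

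Markers of other liver cells are given beside these results, since members such as Stab1, Fcgr2b and Pecam1 are also expressed in macrophages and other blood cells. The part of these cells in the results, those of Lyve1 included, was not tested. Of 10 Kupffer cell markers, 2 rose in Trad-KAPA and 1 in 3’-LEXO. Marco, a scavenger receptor of macrophages, rose in both (log2 3.10 ± 0.29 and 2.82 ± 0.33, edgeR adjusted p = 0.00143 and 0.00233), and Vsig4 in Trad-KAPA (log2 0.68 ± 0.12, edgeR adjusted p = 0.0102). The summed level of the 10 markers was 484 to 767 CPM in controls and 858 to 983 CPM on iron in Trad-KAPA, and 1122 to 1513 CPM and 1484 to 1750 CPM in 3’-LEXO, so the Trad-KAPA sums were higher on iron without overlap and the 3’-LEXO sums overlapped. Summed lymphocyte markers were low in every library, at 3.26 to 10.9 CPM. Of 10 stellate cell markers, 1 rose and 1 fell in Trad-KAPA and 0 were called in 3’-LEXO by edgeR or DESeq2, with 4 at an unadjusted edgeR p below 0.05. Of 6 cholangiocyte markers 3 were tested, and 1 rose in each kit. Of 8 lymphocyte markers, the Trad-KAPA test covered 5 and the 3’-LEXO test 4. Of these and of the 7 hepatocyte markers tested of 8, 0 were called in either kit by edgeR or DESeq2, and at an unadjusted edgeR p below 0.05 there was 1, a hepatocyte marker in 3’-LEXO. Of 9 red cell and platelet markers, the Trad-KAPA test covered 5 and the 3’-LEXO test 7. edgeR called 0 in either kit, with 4 in each at an unadjusted p below 0.05, and DESeq2 called 1, lower in 3’-LEXO. No marker of these cell types was at 0 in all libraries of a group.

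The summed level of the 10 sinusoidal genes was 471, 472 and 364 CPM in the Trad-KAPA controls and 443, 512 and 526 CPM on iron. In 3’-LEXO it was 478, 478 and 403 CPM in controls and 396, 350 and 362 CPM on iron. The Trad-KAPA groups overlapped, whereas every 3’-LEXO iron-loaded library was below every control. Control mouse 3 had the lowest CPM of the 3 controls for 9 of the 10 genes in Trad-KAPA and for 7 of the 10 in 3’-LEXO, where it was lowest for 48.1% and 42.9% of all genes tested. After TMM scaling, as in the tests, it was lowest for 8 and 5 of the 10 genes, against 35.5% and 32.2% of all genes tested.

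Within the sum, Stab1 made up 19.8% ± 0.66 in Trad-KAPA controls and 24.7% ± 0.73 on iron (SD, n = 3), and Stab2 29.4% ± 0.45 and 24.3% ± 1.68. In 3’-LEXO Kdr took the largest share, 38.1% ± 1.74 in controls and 33.7% ± 2.04 on iron, and Wnt2 4.23% ± 1.28 and 8.81% ± 2.07 (SD, n = 3). Stab1 and Stab2 had near equal shares of the Trad-KAPA sum on iron but not on the control diet.

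The calls were repeated under 13 other analyses of each kit. In Trad-KAPA Lyve1 and Wnt2 were called in all 13, Wnt9b in 10 and Stab1 in 7. In 3’-LEXO Stab2 and Lyve1 were called in 7 of the 13, Fcgr2b in 5 and Kdr and Wnt2 in 2, and 0 of the 10 genes were called when any 1 of the 3 control mice was left out.

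**Figure D4:**
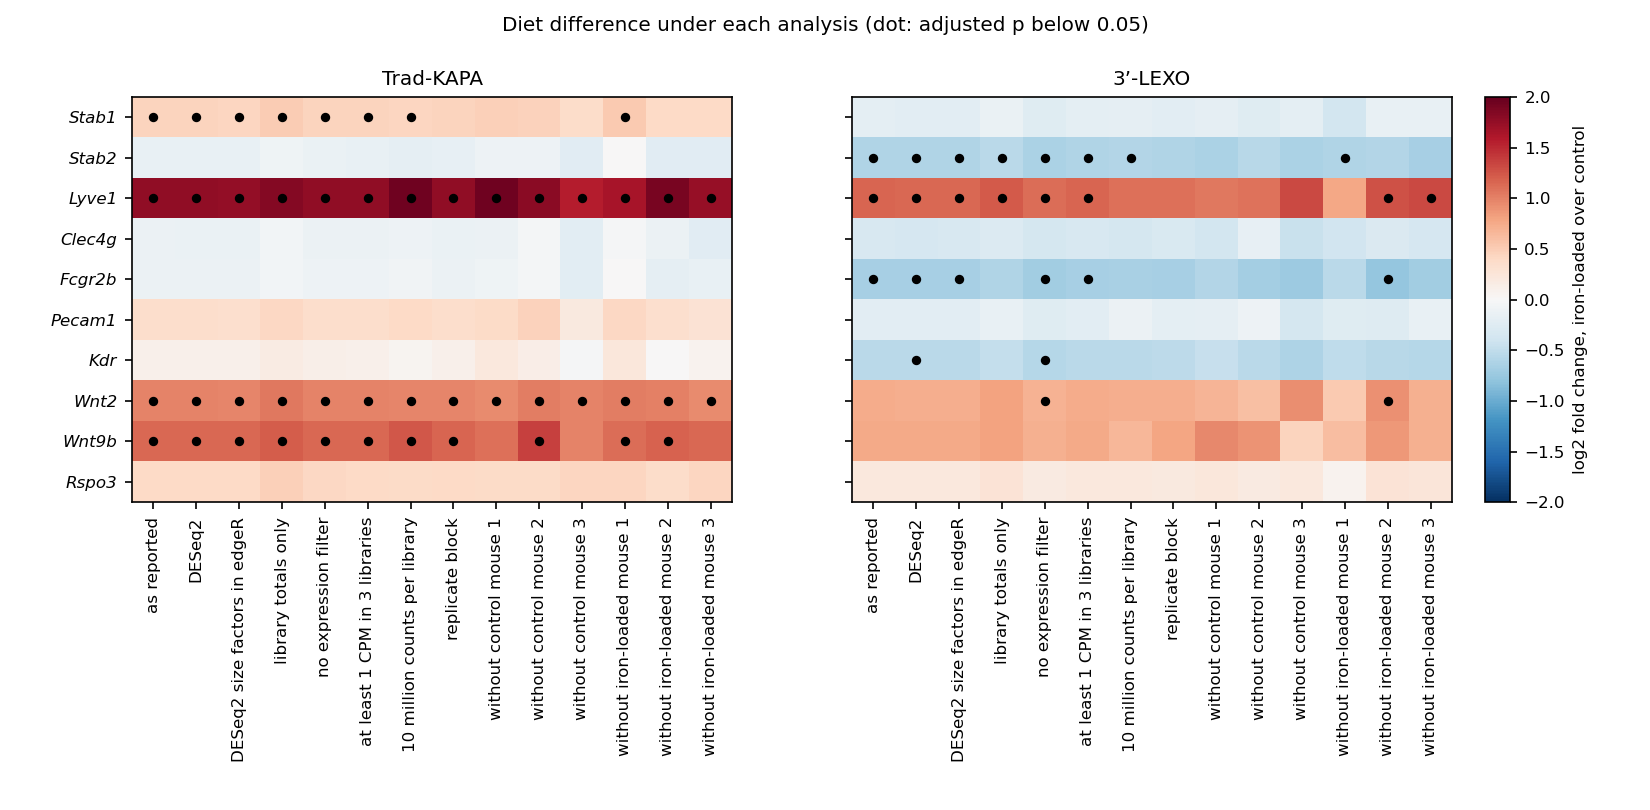
Log2 fold change of iron-loaded over control (colour) of each gene (rows) under each analysis (columns) in Trad-KAPA (left) and 3’-LEXO (right), with a dot where the adjusted p was below 0.05. The Lyve1 and Wnt2 rows carry a dot in every Trad-KAPA column, and in 3’-LEXO no gene carries one in every column.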

How the data were processed

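RNA was read from 6 livers with 2 kits, giving 12 libraries. The values are counts: the authors mapped reads with STAR (2.5.3a, per the submitters’ processing notes) to GRCm38 and deposited raw whole-number counts per gene, taken over exonic reads with 1 place in the genome and with duplicates kept. The counting program, its strand setting and the annotation release are not given in the sources used here. Groups came from the labels. Symbols, positions and merged exon lengths came from GENCODE M21, which matched 26949 of 27022 identifiers. Of the symbols listed, Rspo4 and Tf were not matched.

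Diets were compared within each kit with the quasi-likelihood F test of edgeR 4.0.16 (R 4.3.3) on the counts as deposited, after filterByExpr and TMM scaling, with Benjamini-Hochberg adjustment over all genes tested (threshold 0.05). The standard error is the log2 fold change divided by the square root of F. The kit difference and the diet by kit interaction came from 1 fit of all 12 libraries in 4 groups. CPM is counts over the library total, without TMM. The tests were checked on simulated data with 200 genes changed 2-fold, drawn independently for each library. edgeR recovered 95.5% of these in the Trad-KAPA diet test, 94.5% in 3’-LEXO, 53.5% in the interaction and 100% in the kit difference. Alternatives were DESeq2 1.42.0, its size factors in edgeR, library totals only, no filter, at least 1 CPM in 3 libraries, a draw of 10000000 counts per library, a replicate block and each mouse left out.

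The members and lists were chosen with earlier results of these data known. All 10 members are named; of other lists, called counts and up to 4 genes with the smallest Trad-KAPA p or called in both kits; and the 5 unlisted genes of highest r, among those with at least 50 counts on average in each kit, after adding 0.01 to CPM.

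The same number in both kits is the same mouse. Deviations from the group means correlated at r = 0.44 to 0.77 for these 6 pairs, over 10326 genes, and up to 0.59 for other pairs. Of the 6, 5 correlated best with their own number. As the kits used the same RNA, the mouse was a block in the 12-library alternative. Numbers do not pair mice across diets. Totals of 10724672 to 16553616 counts set the precision of low genes such as Wnt9b, and p-values of the diet tests measure the spread between 3 mice. Without the block, the kit and interaction tests took both libraries of a mouse as separate.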

Additional observations from a re-analysis of the deposited data

How the results depend on the processing

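Of 520 repeats of the members’ values, 480 kept their direction and side of the threshold, 30 lost a call, 5 gained one and 5 changed sign. Those that changed sign were near 0. With 1 mouse left out, Trad-KAPA values of Stab2 ran from log2 -0.23 to 0.0044 and of Fcgr2b from -0.20 to 0.0015, both positive without iron-loaded mouse 1. Kdr ran from log2 -0.019, without control mouse 3, to 0.22. The kit difference of Lyve1 ran from log2 -0.14, without control mouse 3, to 0.15, and was -0.09 without iron-loaded mouse 1.

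In Trad-KAPA 4 members were called, 2 to 4 with 1 mouse left out, and 841 to 2803 of all genes. In 3’-LEXO 3 members were called, 0 to 3 with 1 mouse left out and 199 to 871 of all genes (811 with all mice). In 3’-LEXO, the draw of 10000000 counts called 1 member (Stab2), the fit with no filter 5 members and 2040 genes, and DESeq2 1321 genes. With the interaction, 7 genes passed with no filter, and none was a member. The cause of these changes was not tested.

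A replicate block by number within a kit called 3 members in Trad-KAPA, with Stab1 at adjusted p = 0.0644, and 0 members and 436 genes in 3’-LEXO. The numbers share nothing across the diets: same-numbered mice correlated at r = -0.02 to 0.07 in Trad-KAPA and -0.17 to 0.10 in 3’-LEXO, and 2 and 1 of the 3 control mice correlated best with their own number. With the mouse as the replicate block, 5 genes passed the interaction. The replicate block changed no other call of a member than those given here and in the text. Of the other genes named, 247 repeats kept their call and 52 lost it, among them Emcn and Cdh5.

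The spread is estimated from 3 mice on each diet, from 1 cage each, and Wnt9b rests on 9 to 64 counts a library.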
